A study of Rattus norvegicus with 2 samples.

Results

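The genes described here control how glucose enters heart muscle cells and how much of it is burned. They are the glucose transporter genes Slc2a1, Slc2a3, Slc2a4 and Slc2a8, the hexokinase genes Hk1 and Hk2, the muscle phosphofructokinase gene Pfkm, and the pyruvate dehydrogenase kinase genes Pdk1, Pdk2 and Pdk4. They were chosen by gene symbol for their function, with earlier results of these data known. A probe set (the group of array probes that measures the transcripts of a gene) was present for 9 of the 10. The array held 16592 genes with a symbol. Hk1 was not analysed here.

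Levels come from 2 Affymetrix arrays of cultured neonatal rat ventricular myocytes, a preparation of beating muscle cells from the heart ventricles of rat pups 1 to 2 days old. After 24 hours of recovery in medium with 10% serum the cells were kept in low serum and transduced with an adenovirus carrying a short hairpin RNA (shRNA). One array was labelled Mef2d shRNA, for a hairpin against the muscle transcription factor gene Mef2d, and the other lacZ shRNA, for a control hairpin against a bacterial gene. RNA was taken 3 days later, and the series' design text states that each array held pooled RNA of 6 biological replicates, while the extraction protocol counts 3 replicates per condition and names myotubes. All cells received an adenovirus, and untransduced cells were not analysed here. Each condition has 1 array, so no difference below has a replicate error or a p-value.

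Glucose crosses the cell membrane through facilitative transporters of the Slc2a (GLUT) family. Hexokinases then phosphorylate it, which traps it in the cell, and phosphofructokinase commits it to glycolysis. Pyruvate dehydrogenase kinases phosphorylate and switch off the pyruvate dehydrogenase complex, so they set how much pyruvate enters the mitochondrial citric acid cycle. Heart muscle around birth uses much glucose, with GLUT1 as the main basal transporter, and the insulin-responsive GLUT4 takes over as the heart matures.

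Values are log2 levels made with RMA, a method that corrects background, normalizes arrays to each other and summarizes probes. A difference is the Mef2d-labelled array minus the lacZ-labelled array. The targeted gene Mef2d had a level of 8.94 on the Mef2d-labelled array and 8.22 on the lacZ-labelled array, so it was 1.64-fold higher where a knockdown was labelled. The arrays are therefore called by their labels, and each direction would turn if the labels were exchanged. Over the 11614 genes whose mean level was at least 4.85 (the 30th percentile), the median difference was -0.007, 48.2% of differences were above 0, and the central 95% of differences lay between -0.38 and 0.43.

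Of the 9 genes, 3 of the 4 glucose transporter genes had the largest differences, and not all in 1 direction, while Slc2a8, Hk2, Pfkm and 2 of the 3 kinases had nearly equal levels on both arrays. Slc2a3 was 1.63-fold higher and Slc2a4 1.48-fold higher on the Mef2d-labelled array, and Slc2a1 was 1.24-fold lower. In all, 5 of the genes had differences within 0.1 of 0 on the log2 scale and 3 (Slc2a3, Slc2a4 and Slc2a1) had differences beyond 0.3. Of all 11614 genes, 10.2% lay at least as far from 0 as Slc2a1, 1.52% as Slc2a4 and 0.663% as Slc2a3. Pdk4 was the farthest of the 5 from 0, and 68.7% of all genes lay at least as far. All 9 passed the level filter, with levels from 6.86 to 10.88. The median difference of the 9 was 0.05, with 5 above 0 and 4 below.

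**Figure D1:**
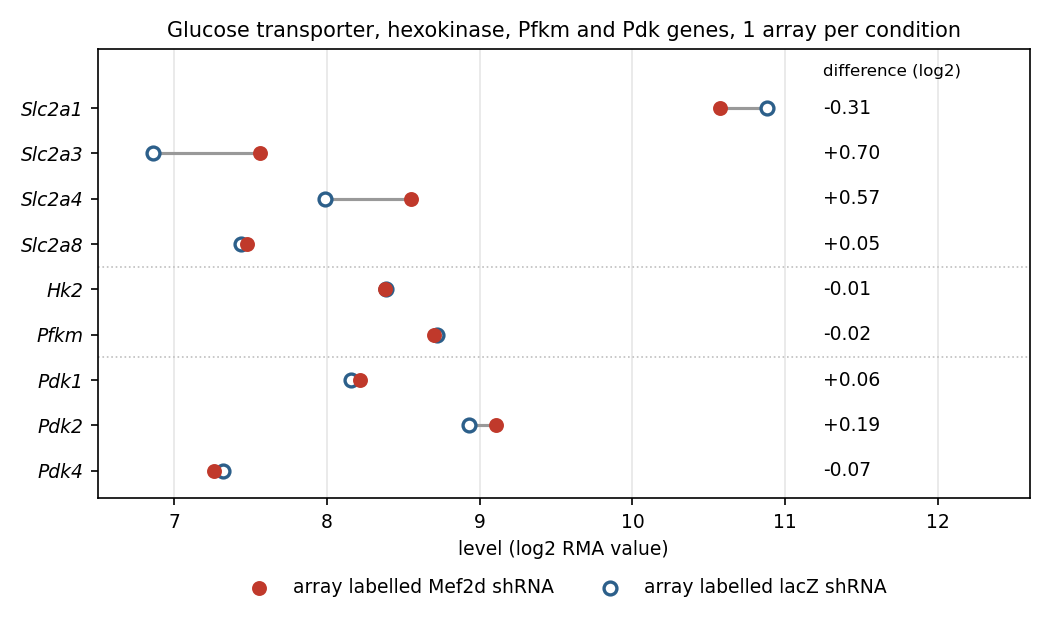
Levels of the 9 measured genes (log2 RMA value, horizontal axis) on the array labelled Mef2d shRNA (filled red) and the array labelled lacZ shRNA (open blue), with the log2 difference at the right. Each point is 1 array and there are no error bars. The points lie apart for Slc2a3, Slc2a4 and Slc2a1 and nearly coincide for Hk2 and Pfkm.

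Slc2a3 encodes GLUT3, a transporter with a high affinity for glucose that is best known from neurons and is also present in fetal heart. Its level was 7.56 on the Mef2d-labelled array and 6.86 on the lacZ-labelled array, a log2 difference of 0.70. At least as large a positive difference was found for 46 of the 11614 genes, Slc2a3 included. The scatter of differences among genes of similar level was summarized by a robust SD (a scaled median absolute deviation within 1 of 20 level bins), which for the bin of Slc2a3 was 0.18. Slc2a3 lay 3.79 such SDs above the median of its bin. This scatter is between genes on the same 2 arrays and is not a replicate error.

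Slc2a4 encodes GLUT4, which insulin and contraction move from internal vesicles to the surface of muscle and fat cells. It had a level of 8.55 on the Mef2d-labelled array and 7.99 on the lacZ-labelled array, a log2 difference of 0.57. A positive difference of at least that size was found for 109 genes, and Slc2a4 lay 3.58 robust SDs above genes of similar level. Its 1.48-fold difference stood just under the 1.5-fold threshold (0.58 on the log2 scale).

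Slc2a1 encodes GLUT1, the basal transporter that is abundant in fetal and newborn heart. Its level was 10.57 on the Mef2d-labelled array and 10.88 on the lacZ-labelled array, a log2 difference of -0.31. In all, 523 genes had a difference at least as low. Bright genes scatter less on these arrays, and with a bin SD of 0.11 Slc2a1 lay -2.94 robust SDs from the median of genes of similar level.

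Because Slc2a1 had the largest negative difference of the 9 genes, the 250 bases before its transcription start are shown, from RefSeq on rat assembly GRCr8, chr5:138002272-138002521, plus strand. Capitals mark the hypoxia response core, ACGTG, which hypoxia-inducible factors bind, and the GC box, GGGCGG, which Sp factors bind, each searched on both strands (a GC box on the other strand reads CCGCCC).
Slc2a1: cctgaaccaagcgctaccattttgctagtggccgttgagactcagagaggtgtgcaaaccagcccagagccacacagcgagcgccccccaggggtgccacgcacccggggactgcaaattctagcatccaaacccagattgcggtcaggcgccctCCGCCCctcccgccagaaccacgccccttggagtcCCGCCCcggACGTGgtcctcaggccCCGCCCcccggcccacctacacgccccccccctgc

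The Slc2a1 window held 3 GC boxes, beginning 95, 60 and 35 bases before the start, and 1 hypoxia response core that begins 51 bases before it. Its bases were 68.4% G or C. Windows of the same length were read for 7 of the 9 measured genes, and not for Slc2a3 and Slc2a4. The hypoxia response core was found in 3 of the 7 (Slc2a1, Pfkm and Pdk2), against 16.6% of all 33469 windows in the table, and the GC box in 3 of the 7 (Slc2a1, Pdk1 and Pdk4), against 30.5%. The E-box, CANNTG, was found in 3 of the 7 (Slc2a8, Pdk1 and Pdk2), against 65.5%. In the Pdk2 window the E-box and the hypoxia response core overlap in 1 CACGTG, which counts as the core on both strands. No window of the 7 held the MEF2 consensus, which 2.96% of all windows hold. A match is a run of letters and was not tested as a binding site, and the windows cover only the bases next to the start.

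Slc2a8 encodes GLUT8, a transporter kept on internal membranes in many tissues. It had a level of 7.48 on the Mef2d-labelled array and 7.44 on the lacZ-labelled array, a log2 difference of 0.05. Slc2a8 stood 0.24 robust SDs from genes of similar level.

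Set against each other within the family, the differences of Slc2a4 and Slc2a1 were 0.88 apart on the log2 scale, which means that the fold of Slc2a4 was 1.83 times that of Slc2a1. Those of Slc2a3 and Slc2a1 were 1.01 apart (this pair was chosen after its values were seen). Levels of different probe sets cannot be set against each other, so the data do not say which transporter transcript was the more abundant. In RNA of a whole culture, fewer cells of a type and less RNA per cell cannot be told apart.

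**Figure D2:**
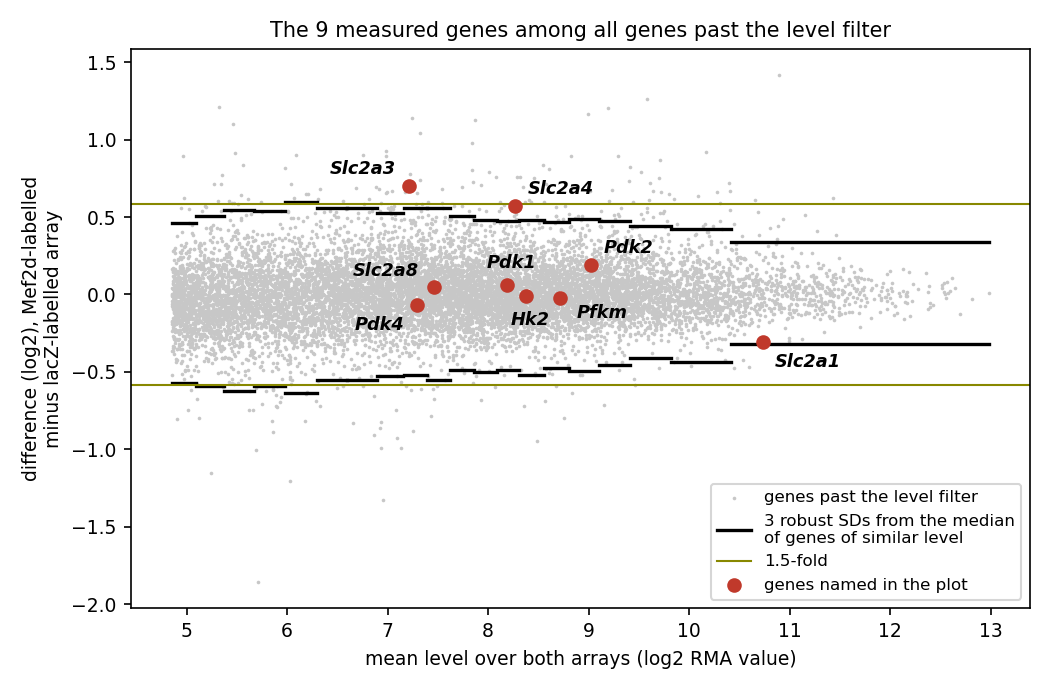
Log2 difference, Mef2d-labelled minus lacZ-labelled array (vertical axis), against the mean level over both arrays (log2 RMA value, horizontal axis) for 11614 genes (grey), with the 9 measured genes in red. Olive lines mark 1.5-fold and black segments 3 robust SDs from the median of genes of similar level. Slc2a3 lies above both, Slc2a4 above the black segment and just under the olive line, and Slc2a1 close to the lower black segment.

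The measured hexokinase gene and Pfkm were nearly level between the arrays. Hk2 encodes hexokinase 2, the insulin-regulated hexokinase of muscle, which can bind to mitochondria. Its level was 8.38 on the Mef2d-labelled array and 8.39 on the lacZ-labelled array (difference -0.01). Pfkm encodes the muscle subunit of phosphofructokinase, and its level was 8.70 on the Mef2d-labelled array and 8.72 on the lacZ-labelled array (difference -0.02). Of the 11614 genes, 93.6% lay at least as far from 0 as Hk2 and 88.0% at least as far as Pfkm.

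Among the pyruvate dehydrogenase kinases, Pdk2, the kinase found in most tissues, had the largest difference. It had a level of 9.11 on the Mef2d-labelled array and 8.93 on the lacZ-labelled array, a log2 difference of 0.19 or 1.14-fold, which is 1.17 robust SDs from genes of similar level, and 27.9% of all genes lay at least as far from 0. Pdk1, the kinase that hypoxia induces, had levels of 8.22 on the Mef2d-labelled array and 8.16 on the lacZ-labelled array (difference 0.06). Pdk4 is the kinase that fasting and fatty acids induce in heart through PPAR receptors. Its level was 7.26 on the Mef2d-labelled array and 7.32 on the lacZ-labelled array (difference -0.07). The differences of Pdk4 and Pdk2 were -0.26 apart on the log2 scale, and none of the 3 kinases passed a threshold used here.

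At the 1.5-fold threshold 1 of the 9 genes was higher (Slc2a3) and none was lower, where 0.844% of all 11614 genes were as much higher and 0.534% as much lower. At 1.3-fold 2 of the 9 were higher (Slc2a3 and Slc2a4) and none lower, against 3.51% and 2.47% of all genes. No gene of the 9 was 2-fold higher or lower, as were 0.0775% and 0.0431% of all genes. With a cut at 3 robust SDs, taken in each level bin, 2 of the 9 were higher (Slc2a3 and Slc2a4) and none lower, against 1.53% and 0.697% of all genes.

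Other genes of glucose use were read in 8 lists of 143 symbols, of which 115 had a named probe set past the level filter. Across these lists 2 of the 115 genes passed 1.5-fold upward and none downward, against 0.844% and 0.534% of all 11614 genes. Neither is a transporter or glycolytic enzyme gene. They were Tbc1d4, which encodes the Akt substrate AS160 that holds GLUT4 vesicles inside the cell until insulin acts, and Car12, which encodes a membrane carbonic anhydrase.

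The other sugar transporter genes had smaller differences than Slc2a3 and Slc2a4. Of 8 listed, 5 passed the level filter, with a median difference of 0.10 (range -0.10 to 0.26) and none past 1.5-fold. Slc2a13, a proton-coupled myo-inositol transporter, had a level of 8.13 on the Mef2d-labelled array and 7.87 on the lacZ-labelled array (difference 0.26). Slc2a6 had a difference of 0.18, Slc2a9, a urate transporter, of -0.10 and Slc2a12 of -0.07. Slc2a2, the liver and beta cell glucose transporter, and Slc2a5, the fructose transporter, were below the filter.

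The list of other glucose phosphorylation and phosphofructokinase control genes kept only phosphofructokinase subunit and regulator genes past the filter. Hk3, the hexokinase gene measured in it, was below the filter, as were Fbp1 and Fbp2. Of the 6 genes 5 were below 0, with a median of -0.18 and none past 1.5-fold. Pfkfb3, which makes a sugar phosphate that activates phosphofructokinase, had a level of 7.52 on the Mef2d-labelled array and 7.86 on the lacZ-labelled array (difference -0.34). Pfkp, the platelet-type phosphofructokinase subunit, had a level of 10.07 on the Mef2d-labelled array and 10.36 on the lacZ-labelled array (difference -0.29). Pfkfb4 was the member above 0, at 0.03, and Pfkfb1 had a difference of -0.07. Beside the -0.02 of Pfkm, the liver-type subunit Pfkl had a difference of -0.13 (named after its value was seen).

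Lower glycolysis and lactate genes had a median of 0.02 over 17 genes, with 10 above 0, 7 below and none past 1.5-fold. Pkm, the muscle pyruvate kinase gene (listed under its older symbol), had the largest positive difference (0.28) and Slc16a7, a monocarboxylate transporter, the next (0.25). The most negative were Eno1, an enolase, at -0.11 and Slc16a3, the lactate exporter of glycolytic cells, at -0.10.

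Glycogen genes likewise had a median of 0.02 over 15 genes, with 9 above 0 and none past 1.5-fold, but a wider range. Ppp1r3a, the muscle subunit that brings protein phosphatase 1 to glycogen, had a level of 7.99 on the Mef2d-labelled array and 7.54 on the lacZ-labelled array (difference 0.45). Its relative Ppp1r3c had a level of 9.14 on the Mef2d-labelled array and 9.51 on the lacZ-labelled array (difference -0.37). Gbe1, the branching enzyme, also had a difference of -0.37, and Phkb, a phosphorylase kinase subunit, one of 0.28.

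Genes of pyruvate entry and of the pyruvate dehydrogenase complex, the target of the Pdk kinases, stayed close together. Of 9 past the filter 8 were above 0, with a median of 0.08, a range of -0.09 to 0.14 and none past 1.5-fold. Pdpr (0.14) and Pdp2 (0.13), which belong to the phosphatases that reverse the kinases' action, had the largest values and Pdhx, a structural subunit, the lowest. Pdk3, the remaining kinase, had a level of 8.48 on both arrays.

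**Figure D3:**
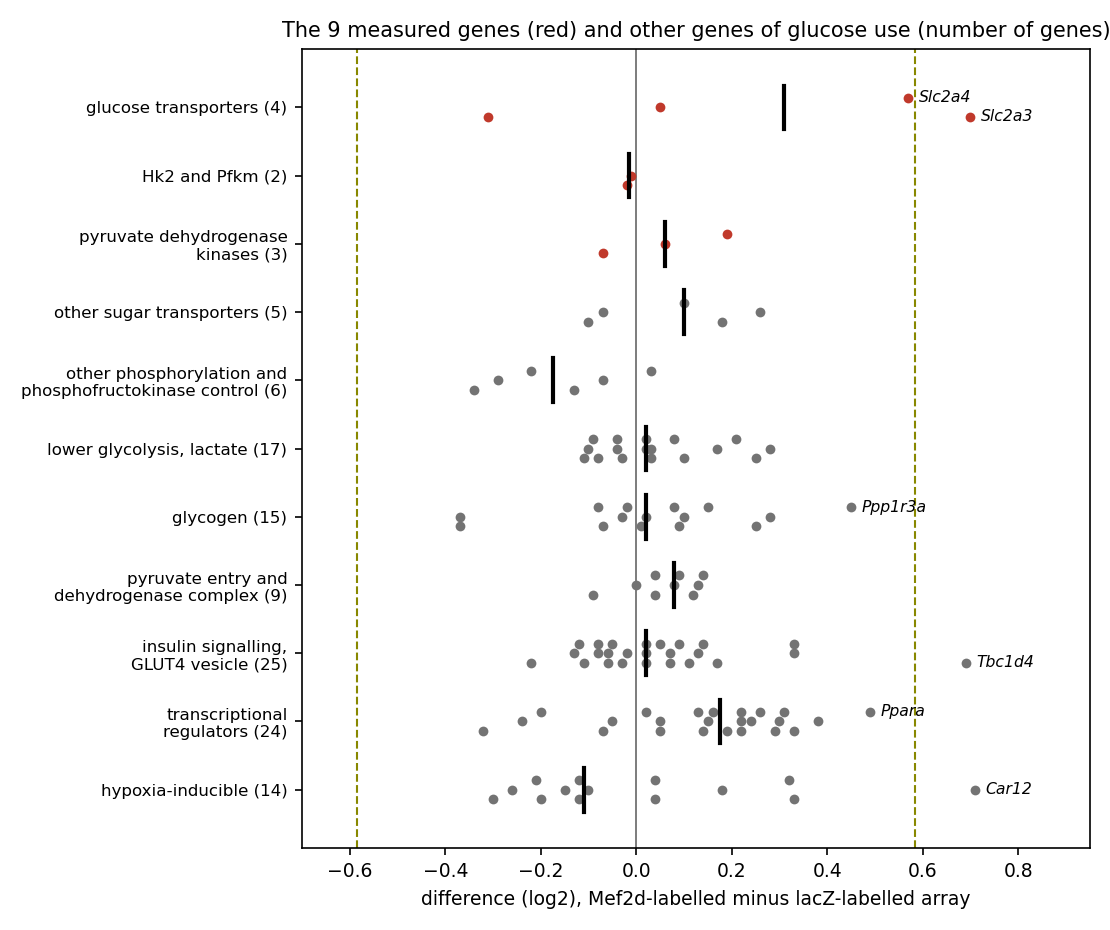
Log2 difference, Mef2d-labelled minus lacZ-labelled array (horizontal axis), of each gene past the level filter, by list, with the 9 measured genes in red, other genes in grey and the median of each list as a black bar. Dashed lines mark 1.5-fold. Slc2a3, Tbc1d4 and Car12 lie past the upper line, Slc2a4 just under it, and no gene lies past the lower line.

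Insulin signalling and GLUT4 vesicle genes had a median of 0.02 over 25 genes, with 14 above 0, 11 below, 1 at least 1.5-fold higher and none as much lower. That gene was Tbc1d4, with a level of 8.08 on the Mef2d-labelled array and 7.39 on the lacZ-labelled array (difference 0.69, 1.62-fold). It was listed under an older symbol of the same gene identifier. Its close relative Tbc1d1 had a difference of 0.07 (named after its value was seen).

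Sort1 and Lnpep came next. Sort1, or sortilin, which sorts GLUT4 into vesicles, had a level of 9.07 on the Mef2d-labelled array and 8.74 on the lacZ-labelled array (difference 0.33). Lnpep, an aminopeptidase that travels with GLUT4, had 10.63 on the Mef2d-labelled array and 10.31 on the lacZ-labelled array (difference 0.33; named after its value was seen). The membrane fusion genes were nearer 0 (named after their values were seen). Vamp2 was at 0.09, Vamp3 at -0.12, Stx4 at -0.11 and Snap23 at -0.06. Insr, the insulin receptor gene, had a difference of 0.17, Akt2 of 0.05 and Irs1 of 0.02 (also named after their values were seen). The most negative values were those of Prkaa2, the muscle AMP kinase catalytic subunit, at -0.22 and Aspscr1, a tether of GLUT4 vesicles, at -0.13.

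**Figure D4:**
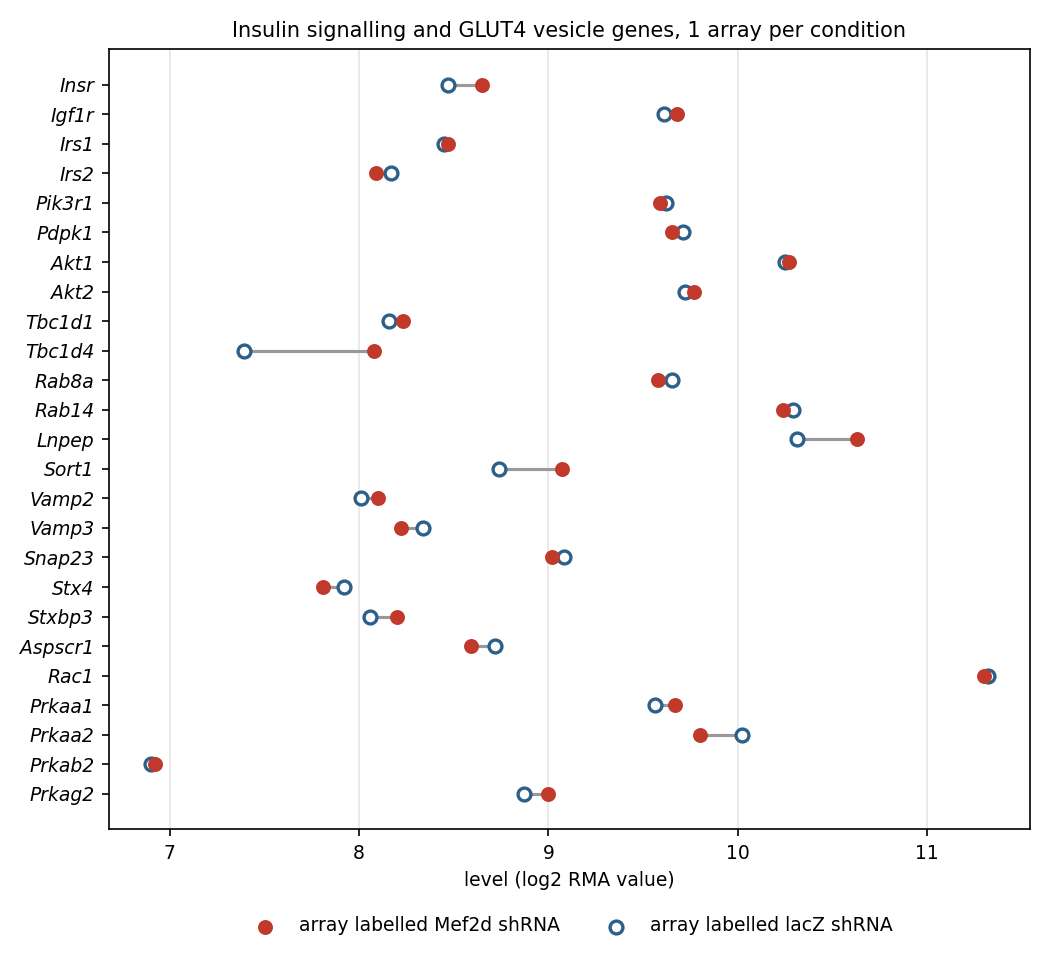
Levels of 25 insulin signalling and GLUT4 vesicle genes (log2 RMA value, horizontal axis) on the array labelled Mef2d shRNA (filled red) and the array labelled lacZ shRNA (open blue), 1 array each and no error bars. The points of Tbc1d4 lie farthest apart (8.08 on the Mef2d-labelled array and 7.39 on the lacZ-labelled array), followed by those of Sort1 and Lnpep.

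Transcriptional regulators of glucose use had a median of 0.17 over 24 genes, with 19 above 0, 5 below and none past 1.5-fold. Ppara encodes 1 of the PPAR receptors through which fatty acids induce Pdk4. Its level was 7.41 on the Mef2d-labelled array and 6.92 on the lacZ-labelled array (difference 0.49), while Pdk4 itself had -0.07. Hdac9, a histone deacetylase that binds MEF2 factors, had a difference of 0.38. The most negative were Myc, a driver of glycolytic genes, at -0.32 and Mlx, a partner of glucose-sensing factors, at -0.24. The list also holds Txnip, which promotes the removal of GLUT1 from the cell surface, with 10.09 on the Mef2d-labelled array and 9.87 on the lacZ-labelled array (difference 0.22; named after its value was seen).

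Slc2a1 and Pdk1 are known targets of hypoxia-inducible factors, and the other hypoxia-inducible genes had no common direction. Over 14 genes the median was -0.11 and the mean 0.01, with 6 above 0 and 8 below, 1 past 1.5-fold upward and none downward. Car12 had a level of 5.70 on the Mef2d-labelled array and 4.99 on the lacZ-labelled array (difference 0.71), close to the filter of 4.85, where a level is hard to tell from background. Ero1l, an oxidase of protein folding, had a difference of 0.33, Adm, or adrenomedullin, one of -0.30 and Egln1, an oxygen sensor, one of -0.26. Hif1a itself had a level of 10.28 on the Mef2d-labelled array and 10.23 on the lacZ-labelled array (named after its value was seen).

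The transporters are shared by cell types that such cultures can hold, so markers of these were read from the same arrays. Each list was summed over its probe sets, also those under the filter, as linear values and returned to log2. The brightest probe sets therefore weigh most in each sum. All 14 cardiomyocyte markers passed the level filter, with a summed level of 15.28 on the Mef2d-labelled array and 15.20 on the lacZ-labelled array. Their single differences ranged from -0.46 to 0.50, with 10 above 0 and 4 below. All 12 fibroblast markers passed as well, with 14.83 on the Mef2d-labelled array and 14.85 on the lacZ-labelled array. Single differences of the fibroblast markers ranged from -0.23 to 0.10, with 5 above 0 and 7 below. Macrophage and leukocyte markers, from cells that express Slc2a3, had 10.61 on the Mef2d-labelled array and 10.76 on the lacZ-labelled array, with 9 of 12 past the filter. Single differences of these 9 ranged from -0.34 to 0.24, with 2 above 0 and 7 below. Adipocyte markers, from cells that express Slc2a4, had 7.56 on the Mef2d-labelled array and 7.73 on the lacZ-labelled array, with Adipoq, Lep and Ucp1 under the filter and the other 4 of the 7 close to it. Erythroid markers, from cells rich in Slc2a1, had 8.06 on the Mef2d-labelled array and 8.0 on the lacZ-labelled array, with 4 of 6 past the filter. Neuronal and glial markers had 7.72 on the Mef2d-labelled array and 7.74 on the lacZ-labelled array, with Snap25, Syt1, Th and Gfap under the filter. Smooth muscle and pericyte markers had 13.65 on the Mef2d-labelled array and 13.70 on the lacZ-labelled array. Des was the brightest of them, with 12.39 on the Mef2d-labelled array and 12.46 on the lacZ-labelled array. Of 7 endothelial markers 1 passed the filter. No marker past the filter differed by 1.5-fold. Adipocyte and erythroid markers were too dim for their sums to give a direction. The part of other cell types in the transporter differences was not tested.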

How the data were processed

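The deposited table holds log2 levels, which the authors made with RMA, per the submitters' processing notes, and the affy package (version 1.36.1). Probe sets are named by gene identifier. The sources used here do not state how probes were assigned to them or on which genome build, and the table has no detection calls. Dim probe sets have compressed differences after RMA, and precision is limited by the number of arrays.

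Symbols came from the platform annotation (16592 of 19239 probe sets, each with 1 symbol). In the lists, 3 of 143 symbols were matched by an older name, where RefSeq's rat table gave the same identifier. Differences were taken on the values as deposited, and genes with a mean under the 30th percentile were left out. No test across genes was possible with 1 array per condition. The genes, lists and thresholds were chosen with earlier results of these data known. Named in each pathway list are genes past 1.5-fold and the 2 with the largest difference in each direction. Some other pathway genes and markers are named because they were under the level filter. Any further gene is marked in the text as named after its value was seen.

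Alternatives were quantile normalization, median centring, subtraction of a lowess curve of the difference on level (statsmodels 0.14.6, fraction 0.3), other level filters, other thresholds, and means for medians. The code of the threshold and scatter steps was run on simulated data. The shifts planted there were larger than any difference of the measured genes, so the run does not bear on those differences.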

Additional observations from a re-analysis of the deposited data

How the results depend on the processing

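Under quantile normalization, median centring and lowess subtraction no difference of the 9 genes changed sign or moved by more than 0.023, and the median of all genes moved by at most 0.012. Slc2a3 lay between 0.69 and 0.71, Slc2a4 between 0.56 and 0.58 and under 1.5-fold in each, Slc2a1 between -0.33 and -0.30, and Mef2d between 0.71 and 0.73. Of the 9 genes, 1 passed 1.5-fold upward, against 2 with a 1.3-fold threshold, 0 with a 2-fold threshold and 2 with a cut at 3 robust SDs; downward it was 0 under each. The other sugar transporter list had a median of 0.021 over 7 genes without a level filter and 0.179 over 2 genes at or above the median level. With that median filter the list of glucose phosphorylation and phosphofructokinase control was at -0.257 over 4 genes. With means, the transcriptional regulators were at 0.136 and the hypoxia-inducible genes at 0.012. Naming further probe sets by gene identifier, an alternative added after seeing the data, brought in Tigar (-0.40) and moved no list median by more than the robust SD of all differences (0.17) over the square root of the list's size. The comparison of Hk2 with Hk1 was not run. With 1 array per condition there was no replicate to leave out. No paired analysis was possible because there is nothing to pair beyond the 2 arrays.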
